A study of Mus musculus with 6 samples.

Results

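The myostatin, activin and TGF-β1 system was described in bulk RNA-Seq of mouse gastrocnemius-plantaris (GP) muscle through 10 genes. They were taken by symbol from the count tables: the ligand genes Mstn, Gdf11, Inhba, Inhbb and Tgfb1, the receptor genes Acvr2a, Acvr2b and Acvr1b, and the antagonist genes Fst and Fstl3. All 10 were among the 24421 genes listed, and all 10 passed the filter on low counts that left 14180 genes for testing. The study asked what the loss of Net39, a protein of the muscle nuclear envelope, does in adult muscle. Ctrl mice were Net39 fl/fl without Cre, and cKO mice were HSA-CreERT2; Net39 fl/fl, with a Cre that tamoxifen switches on under the human skeletal actin promoter, active in muscle fibers. The labels give B6C3F1 as the strain background, and per the study's methods the founders, from B6C3F1 zygotes, were mated to C57BL/6N mice before the cross to Cre. Mice of both groups carried the floxed alleles, received tamoxifen and were male and 5 months old, 3 months after tamoxifen. Each group held 3 mice with 1 library each, named Ctrl 1 to 3 and cKO 1 to 3 here.

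The targeted gene went against the labels. Ppapdc3, which encodes NET39, had 310, 321 and 217 counts in Ctrl 1, 2 and 3 and 5365, 4340 and 6080 counts in cKO 1, 2 and 3. In CPM, counts scaled to library size and TMM factors, these were 7.20 ± 1.10 against 134 ± 19.7 (SD, n = 3 each), a log2 fold change of 4.22 (SE 0.17, adjusted p = 0.000161, edgeR's quasi-likelihood test with Benjamini-Hochberg adjustment over all genes tested). The transcript that should be lost was thus the more abundant one in every library labelled cKO. Directions are therefore given for the libraries as labelled, and whether the labels were exchanged was not tested.

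Myostatin and activins are secreted dimers of the TGF-β family that restrain muscle growth. They bind the type II receptors ACVR2A and ACVR2B, which recruit a type I receptor such as ACVR1B (ALK4) that phosphorylates SMAD2 and SMAD3. Follistatin binds the ligands outside the cell and keeps them from their receptors, whereas TGF-β1 reaches the same SMADs through TGFBR1 and TGFBR2. In muscle, myostatin mRNA is known to be more abundant in fast type IIb than in slow fibers.

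Between 33860001 and 38201728 counts per library were present in those labelled Ctrl and between 39191239 and 48839910 in those labelled cKO, so that the members had from 12 counts in 1 library, for Inhba, to 5280, for Mstn. All 6 skeletal muscle markers were detected. Fast fiber markers summed to 56481 to 94235 CPM in Ctrl and 144454 to 185029 CPM in cKO, and slow fiber markers to 8168 to 13643 CPM in Ctrl and 344 to 3300 CPM in cKO. Among the cKO libraries, cKO 2 stood apart, with the highest slow fiber sum (3300 CPM), the highest tendon marker sum (714 CPM against 163 and 386 CPM) and the lowest fast fiber sum (144454 CPM). Across all genes, 302 were called higher in cKO and 556 higher in Ctrl, which took both an adjusted p below 0.05 and a difference of more than 2-fold. With scaling by total counts in place of TMM these were 157 and 1023, as the median over all genes moved from -0.015 to -0.27 on the log2 scale, and without Ctrl 1 only 172 were called higher in cKO.

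The promoters of 3 members that passed the test and had a RefSeq window are shown, because the first rose with fast fiber genes and the other pair moved in opposite directions. Each line gives the 250 bases before the RefSeq start, 5′ to 3′ on the gene's strand (GRCm38.p6, mm10). Capitals mark any match, on either strand and with overlapping matches counted, to a TATA box (TATAAA), an E-box (CANNTG), a Smad half-site (CAGAC) or a GC box (GGGCGG).
Mstn chr1:53061390-53061639, plus strand: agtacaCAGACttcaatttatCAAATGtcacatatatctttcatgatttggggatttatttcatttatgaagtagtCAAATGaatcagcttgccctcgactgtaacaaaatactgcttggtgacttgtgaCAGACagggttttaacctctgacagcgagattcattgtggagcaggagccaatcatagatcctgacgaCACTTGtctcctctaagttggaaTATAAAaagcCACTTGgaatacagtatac
Acvr1b chr15:101173822-101174071, plus strand: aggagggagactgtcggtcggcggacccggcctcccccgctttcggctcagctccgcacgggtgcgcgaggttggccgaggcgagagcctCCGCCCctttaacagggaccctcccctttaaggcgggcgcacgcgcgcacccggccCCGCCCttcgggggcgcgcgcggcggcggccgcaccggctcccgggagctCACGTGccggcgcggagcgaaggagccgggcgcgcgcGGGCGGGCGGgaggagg
Tgfb1 chr7:25686752-25687001, plus strand: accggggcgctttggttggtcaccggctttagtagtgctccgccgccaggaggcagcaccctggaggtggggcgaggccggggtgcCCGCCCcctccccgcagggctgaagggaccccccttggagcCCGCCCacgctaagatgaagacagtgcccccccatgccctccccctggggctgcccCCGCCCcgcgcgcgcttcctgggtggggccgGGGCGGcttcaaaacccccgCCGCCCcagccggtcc
The Mstn window had a GC content of 38.4% and held a TATA box beginning 29 bases before the start, 4 E-boxes at 229, 174, 52 and 19 bases before it, and 2 Smad half-sites at 244 and 120 bases. It held no GC box. The Acvr1b and Tgfb1 windows had GC contents of 78.8% and 75.2%, with 4 and 5 GC boxes and no TATA box, and Acvr1b held 1 E-box at 54 bases before the start. Of 32817 RefSeq promoter windows of this length, 12.4% held the TATA box, 66.2% an E-box, 42.2% the Smad half-site and 32.7% the GC box. Among the 9 members with a window these were held by 4, 4, 4 and 7. These matches describe letters only.

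Of the 10 members, 2 were called higher in cKO, Mstn and Acvr1b, where 2.13% of all genes tested were called in that direction. Fst alone was called higher in Ctrl, where the share over all genes was 3.92%. At an adjusted p under 0.05 with no limit on the fold, 3 members were higher in cKO (12.6% of all genes) and 2 higher in Ctrl (11.8%), with Acvr2a and Tgfb1 added. The 3 libraries of one group lay wholly above those of the other for 7 of 10 members, 5 of them higher in cKO, where 43.9% of all genes tested were separated in either direction. The median log2 fold change over the members was 0.16, against -0.015 over all genes, but it was -0.05 without cKO 2 and -0.08 with total-count scaling, so that no direction is read from it.

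**Figure D1:**
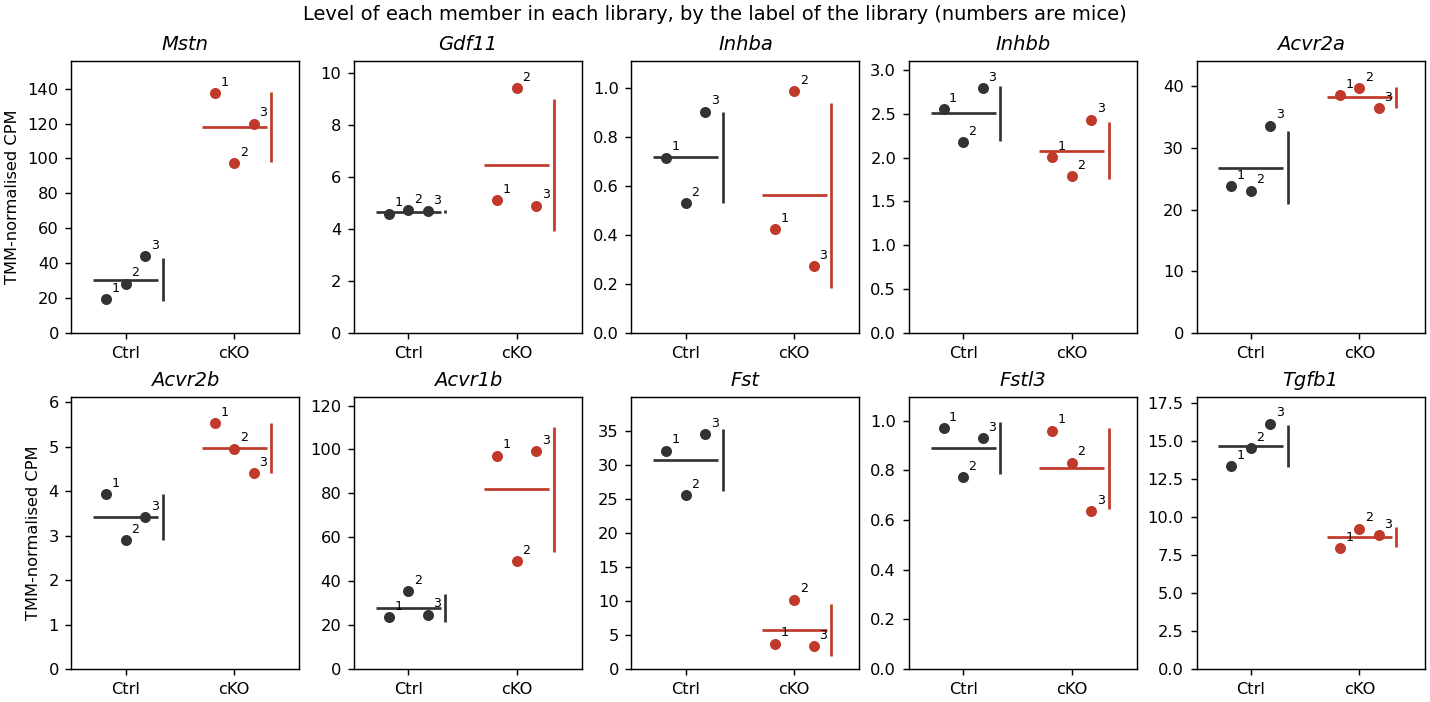
TMM-normalised CPM of the 10 members, 1 panel each with its own axis from 0; points are the libraries labelled Ctrl (black) and cKO (red) with the mouse number, horizontal lines are means and vertical lines the mean ± SD (n = 3). Mstn and Acvr1b were higher and Fst and Tgfb1 lower in all libraries labelled cKO, and cKO 2 was the highest of its group for Fst, Gdf11 and Inhba and the lowest for Mstn and Acvr1b.

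Among the ligands, Mstn (chr1:53061640-53068079, 3 exons), which encodes the muscle-secreted growth inhibitor myostatin, changed most. It reached 19.4, 28.3 and 44.1 CPM in Ctrl 1, 2 and 3 and 137, 97.5 and 120 CPM in cKO 1, 2 and 3. The lowest cKO library was thus above the highest Ctrl library, and the spread among Ctrl mice was itself wide. The means were 30.6 ± 12.5 and 118 ± 20.0 CPM (SD, n = 3), a 3.87-fold difference with a log2 fold change of 1.95 (SE 0.29, 95% interval 1.27 to 2.63, adjusted p = 0.0057, edgeR). Leaving out any 1 library gave log2 fold changes of 1.71 to 2.31, and the call was kept each time.

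Mstn moved with the fast fiber genes. Myh4, the type IIb myosin heavy chain, had 15349, 24649 and 36565 CPM in the Ctrl libraries and 80134, 57352 and 72862 CPM in the cKO libraries, in the same order of libraries as Mstn. Counts of Mstn per 1000 counts of Myh4, which do not depend on how libraries are scaled, were 1.26, 1.15 and 1.20 in Ctrl and 1.71, 1.70 and 1.65 in cKO. The ratio varied far less among the mice of a group than Mstn itself, and it was still higher in 3 of 3 cKO libraries. On the log2 scale it was 0.49 higher in cKO, with p = 0.1 in an exact two-sided permutation test, the smallest p that 3 against 3 libraries allow. Against Ckm, the muscle creatine kinase, in place of Myh4 the log2 difference was 1.26. Against each of the 7 fast fiber markers in turn, a comparison added after the values were seen, the Mstn ratio was 1.30 times (Actn3) to 3.15 times (Myl1) as high in cKO. These ratios restate that the fold change of Mstn exceeded those of the markers, whose log2 fold changes were 0.32 to 1.58, and are no separate evidence. In the whole fast fiber list 6 of 7 genes passed the test and were higher in cKO, and in the slow fiber list 3 of 7 passed and were higher in Ctrl. By single-nucleus RNA-Seq of GP muscle the study reported more type I (slow) and fewer type IIb fiber nuclei in cKO. The lists here, as labelled, ran the opposite way, and whether the labels were exchanged was not tested. Myh7, the slow myosin heavy chain, had 3676, 1723 and 2219 CPM in Ctrl and 494, 974 and 75.3 CPM in cKO and did not pass (adjusted p = 0.0742, edgeR). No marker of either list was at 0 in all libraries, and in whole muscle fewer cells of a type and less RNA per cell cannot be told apart. The part of fiber type in the Mstn difference was not tested.

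**Figure D2:**
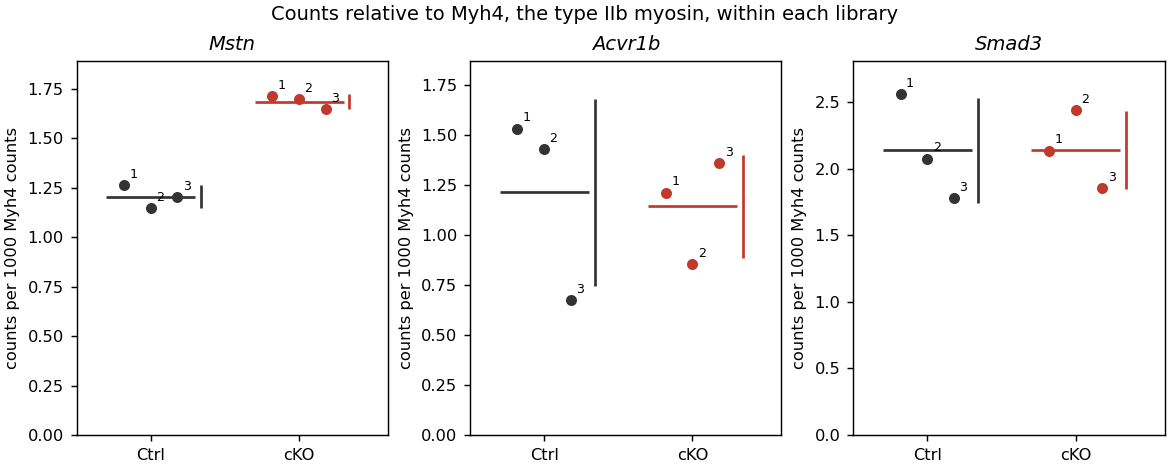
Counts of Mstn, Acvr1b and Smad3 per 1000 counts of Myh4 within each library, each axis from 0; points are libraries labelled Ctrl (black) and cKO (red), horizontal lines are means and vertical lines the mean ± SD (n = 3). The Mstn ratio was 1.15 to 1.26 in Ctrl and 1.65 to 1.71 in cKO with no overlap, while the Acvr1b and Smad3 ratios overlapped between the groups. These ratios restate how the fold change of each gene stood to that of Myh4 and are no separate evidence.

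The genes with profiles most like that of Mstn, by the root mean square difference between centered log2 CPM over the 6 libraries among 8059 genes with a mean of at least 10 CPM, were Gpd2, Wnt4, Actn3, Plcd4 and Smyd2. Gpd2, a mitochondrial glycerol-3-phosphate dehydrogenase, was nearest at 0.074, followed by the secreted ligand gene Wnt4 at 0.18. Actn3, the α-actinin of fast fibers, stood at 0.19, the phospholipase gene Plcd4 at 0.21 and the methyltransferase gene Smyd2 at 0.22.

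Gdf11 (chr10:128882295-128891718, minus strand), the closest relative of Mstn, showed little separation. It had 4.6, 4.73 and 4.70 CPM in Ctrl and 5.11, 9.43 and 4.91 CPM in cKO. All cKO values were above the Ctrl values, but cKO 2 carried most of the difference. The log2 fold change was 0.47 (SE 0.26, 95% interval -0.13 to 1.07, adjusted p = 0.221, edgeR), and 0.08 without cKO 2.

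The activin subunit genes were lowly expressed. Inhba (chr13:16011851-16031621), for the βA subunit, had 0.715, 0.531 and 0.902 CPM in Ctrl and 0.423, 0.987 and 0.273 CPM in cKO, from 12 to 38 counts per library. The groups overlapped, with cKO 2 the highest and cKO 3 the lowest of all 6 libraries. Its log2 fold change was -0.35 (SE 0.48, 95% interval -1.49 to 0.78, adjusted p = 0.625, edgeR). The interval held levels more than 2-fold lower in cKO, but not 2-fold higher ones. A 2-fold lower level in cKO was thus not excluded at this depth and spread. The log2 fold change was -1.06 without cKO 2 (adjusted p = 0.0938, edgeR) and -0.02 without cKO 3 (adjusted p = 0.981, edgeR). Inhbb (chr1:119415465-119422248, minus strand), for the βB subunit, had 2.55, 2.17 and 2.79 CPM in Ctrl and 2.00, 1.79 and 2.43 CPM in cKO. These overlapped as well, with a log2 fold change of -0.27 (SE 0.19, 95% interval -0.72 to 0.18, adjusted p = 0.339, edgeR).

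Tgfb1 (chr7:25687002-25705077), the gene of the TGF-β1 ligand, was lower in cKO. It had 13.4, 14.6 and 16.2 CPM in Ctrl and 7.96, 9.24 and 8.79 CPM in cKO. The 2 groups were tight and well apart, at 14.7 ± 1.40 and 8.67 ± 0.653 CPM (SD, n = 3). The log2 fold change was -0.76 (SE 0.11, 95% interval -1.02 to -0.51, adjusted p = 0.00524, edgeR), the smallest p of the 10 members. Being 1.70-fold, the difference fell short of the fold limit, which it passed only with total-count scaling (-1.01). Immune markers moved with it: 4 of the 6 tested, of 7 listed, passed and were higher in Ctrl, their sum was 67.6 to 87.1 CPM in Ctrl and 38.8 to 57.3 CPM in cKO, and none was at 0 in all libraries. Their part in the Tgfb1 difference was not tested. The genes with profiles most like that of Tgfb1 by the same measure were Laptm5, a lysosomal protein gene of blood cells, at 0.069, the kinase gene Fyn at 0.074, Canx, the chaperone calnexin, at 0.077, Crim1 at 0.077 and Gpr153 at 0.079.

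Of the receptors, the type I receptor gene Acvr1b (chr15:101174067-101213684) changed most. It had 23.5, 35.3 and 24.7 CPM in Ctrl and 97.2, 49.1 and 99.2 CPM in cKO. The groups did not overlap, and cKO 2 lay well below the other cKO libraries. The means were 27.9 ± 6.47 and 81.8 ± 28.4 CPM (SD, n = 3), 2.94-fold higher in cKO with a log2 fold change of 1.55 (SE 0.29, 95% interval 0.88 to 2.23, adjusted p = 0.011, edgeR). Leaving out any 1 library gave 1.38 to 1.80, the highest without cKO 2. Counted per 1000 counts of Myh4, Acvr1b stood at 1.53, 1.43 and 0.677 in Ctrl and 1.21, 0.856 and 1.36 in cKO, so that this ratio overlapped where that of Mstn did not. Of the other members, the ratio of Gdf11 to Myh4 overlapped too, and that of each of the other 7 was lower in all cKO libraries, including Acvr2a (0.49 times that in Ctrl) and Acvr2b (0.46 times), beside the rise in Myh4 itself. These ratios restate how the fold change of each gene stood to that of Myh4 (1.46 on the log2 scale). They are no separate evidence, and Acvr2a and Acvr2b themselves were higher in cKO.

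The type II receptor genes differed less. Acvr2a (chr2:48814109-48903269) had 23.7, 23.1 and 33.6 CPM in Ctrl and 38.5, 39.7 and 36.4 CPM in cKO. Ctrl 3 lay nearest to the cKO libraries, which were all higher. The log2 fold change was 0.51 (SE 0.15, 95% interval 0.16 to 0.86, adjusted p = 0.0442, edgeR). It did not pass with total-count scaling (0.26, adjusted p = 0.22) or when any 1 library other than Ctrl 3 was left out (0.42 to 0.53). Exons of Orc4 lie on the opposite strand over exons of Acvr2a, and since the strand setting of the counting was not stated, reads of the 2 genes cannot be told apart there. Orc4 itself had 681 to 798 counts per library and a log2 fold change of 0.08 (adjusted p = 0.473, edgeR).

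Acvr2b (chr9:119402118-119434995), whose product is the main muscle receptor of myostatin, had 3.93, 2.90 and 3.42 CPM in Ctrl and 5.53, 4.96 and 4.41 CPM in cKO. The libraries did not overlap, and the log2 fold change of 0.54 (SE 0.17, 95% interval 0.15 to 0.93) was close to that of Acvr2a. Its adjusted p of 0.0532 with edgeR missed the threshold, which of the alternatives only DESeq2's Wald test passed (0.55, adjusted p = 0.0292). With total-count scaling the log2 fold change was 0.28 (adjusted p = 0.247, edgeR). Leaving out 1 library gave 0.43 to 0.65, with adjusted p of 0.0695 to 0.165 (edgeR). Within each library the log2 ratio of Acvr2b to Acvr2a counts was -2.96 ± 0.35 in Ctrl and -2.95 ± 0.13 in cKO (SD, n = 3), a difference of 0.01 with p = 1 in the exact two-sided permutation test. The balance between the pair of type II receptor transcripts thus showed no difference beyond its spread.

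Fst (chr13:114452290-114458951, minus strand), the gene of the antagonist follistatin, showed the largest fold change of the members and ran opposite to Mstn. It had 1258, 1061 and 1262 counts in Ctrl and 132, 393 and 147 in cKO, or 32.1, 25.6 and 34.5 CPM against 3.73, 10.2 and 3.34 CPM. Every cKO library was below every Ctrl library, with cKO 2 nearest to Ctrl. The means were 30.7 ± 4.61 and 5.76 ± 3.86 CPM (SD, n = 3), 5.34-fold lower in cKO with a log2 fold change of -2.42 (SE 0.41, 95% interval -3.39 to -1.44, adjusted p = 0.00858, edgeR). Without cKO 2 the log2 fold change was -3.14 (adjusted p = 0.000825, edgeR). Of markers of cells other than fibers, 2 of 7 genes of fibro-adipogenic progenitors passed and were higher in Ctrl (sums of 747 to 792 CPM in Ctrl and 682 to 838 CPM in cKO). None of the 5 satellite cell genes (67.9 to 107 against 41.1 to 64.5 CPM) and none of the 6 tendon genes (333 to 361 against 163 to 714 CPM) passed. Most of the satellite cell sum came from Sdc4 (58.5 to 97.9 CPM in Ctrl and 32.4 to 53.7 CPM in cKO). The log2 fold changes of the other satellite cell genes were -0.10 for Pax7, -0.04 for Vcam1, 0.24 for Chrdl2 and 0.58 for Myf5. None of these markers was at 0 in all libraries, and their part in the Fst difference was not tested. An antisense gene model over Fst exons, Gm47040, was not analysed here.

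The opposite changes of antagonist and ligand met in the ratio of Fst to Mstn counts within a library. On the log2 scale it was 0.73, -0.14 and -0.35 in Ctrl 1, 2 and 3 and -5.21, -3.26 and -5.17 in cKO 1, 2 and 3. These counts are not corrected for the length of either gene, so that the ratio compares libraries and not the levels of the pair. It was lower in every cKO library than in any Ctrl library. The ratio was 4.62 lower on the log2 scale in cKO (0.08 ± 0.57 against -4.54 ± 1.11, SD, n = 3), with p = 0.1 in the exact two-sided permutation test, the smallest possible. Since Fst and Mstn each separated the groups, in opposite directions, the ratio restates their fold changes and is no separate evidence.

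Fstl3 (chr10:79777272-79782630), a follistatin relative that also binds activins and myostatin, did not differ beyond its spread. It had 0.970, 0.772 and 0.930 CPM in Ctrl and 0.960, 0.831 and 0.636 CPM in cKO, which overlapped. The log2 fold change was -0.14 (SE 0.25, 95% interval -0.73 to 0.44, adjusted p = 0.708, edgeR), from 28 to 38 counts per library. Prss57, whose exons overlap Fstl3 on the opposite strand, had 0 to 5 counts.

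**Figure D3:**
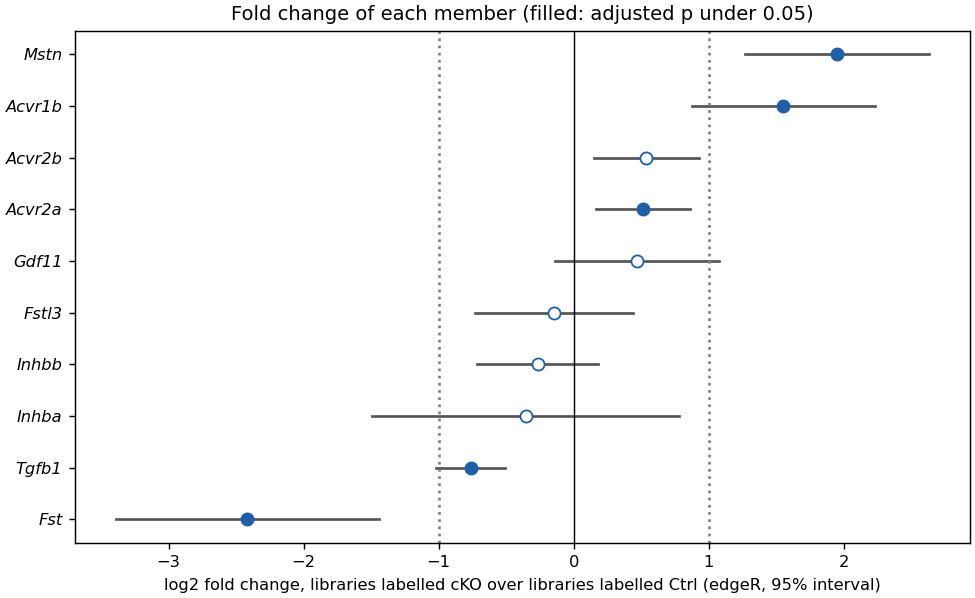
Log2 fold change of each member, libraries labelled cKO over those labelled Ctrl, on the x axis with its 95% interval (edgeR, 3 libraries a group); filled points passed an adjusted p under 0.05 and dotted lines mark a 2-fold difference. Mstn (1.95) and Acvr1b (1.55) lay beyond the limit on one side and Fst (-2.42) on the other, while the Inhba interval ran from -1.49 to 0.78.

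The members were ordered by level per length, as CPM per kilobase of exon. Mstn was the highest of the members in both groups, at 11.3 ± 4.62 in Ctrl and 43.7 ± 7.40 in cKO (SD, n = 3). In Ctrl it was followed by Fst (6.70 ± 1.01), Acvr1b (6.31 ± 1.46) and Acvr2a (4.72 ± 1.04), and neighbors among these 4 genes overlapped between libraries. Below them stood Tgfb1, Gdf11, Acvr2b, Inhbb, Fstl3 and Inhba, each clear of the next. In cKO, Acvr1b (18.5 ± 6.42) and Acvr2a (6.72 ± 0.292) followed Mstn without overlap. Then came Tgfb1, Gdf11, Acvr2b and Fst, whose neighbors overlapped, and Inhbb, Fstl3 and Inhba as in Ctrl. Fst thus moved from rank 2 to rank 7 of 10, and the activin subunit genes and Fstl3 stayed at the bottom of both orders.

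**Figure D4:**
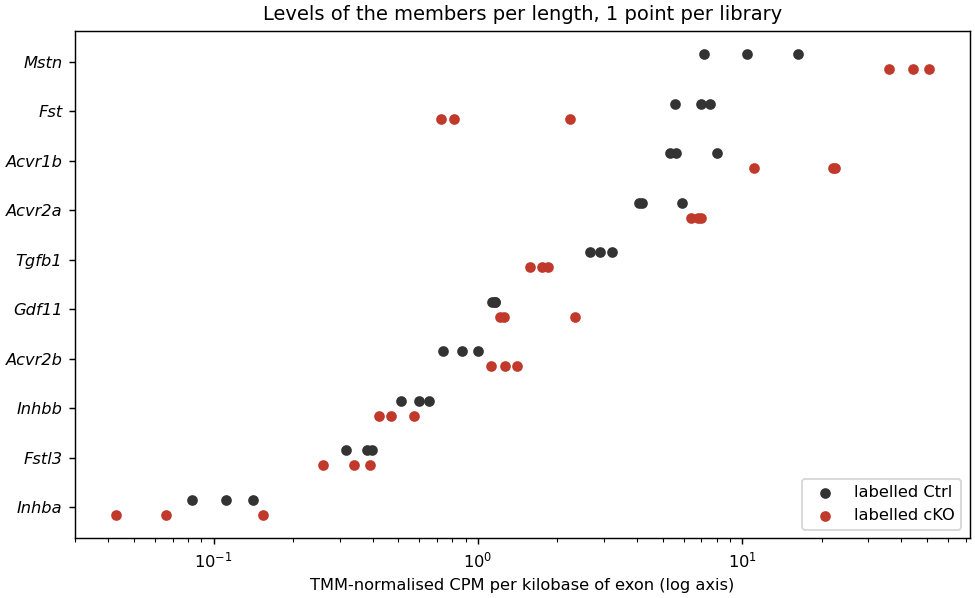
TMM-normalised CPM per kilobase of exon of each member in each library, on a log axis, with libraries labelled Ctrl in black and cKO in red, genes in the order of their Ctrl means. Mstn was highest in both groups, with Ctrl values of 7.17 to 16.3 and cKO values of 36.0 to 50.8, and Fst left the upper genes in cKO.

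Beyond the 10 members, lists of other pathway genes held 71 genes that were tested, of which 9 passed and were higher in cKO (12.7%, where 12.6% of all genes did) and 22 higher in Ctrl (31.0%, where 11.8% of all genes did). Of these, 1 was called higher in cKO and 11 higher in Ctrl. With total-count scaling 4 (5.63%) and 27 (38%) passed, where 4.75% and 28.7% of all genes did, and the counts called stayed at 1 and 11. With the replicate block 9 and 14 (19.7%) passed, where 6.54% and 6.85% of all genes did. None of the genes that had passed turned sign under any alternative. Leaving out 1 library gave 1 to 4 genes called higher in cKO and 7 to 9 higher in Ctrl, with 4 and 7 without Ctrl 3, 2 and 7 without cKO 1, and 2 and 8 without Ctrl 1. The numbers that passed were 6 and 13 without Ctrl 1 or without cKO 3, 6 and 12 without Ctrl 2, and 5 and 13 without cKO 1. The shares over all genes fell in these 4 fits too, to 5.33% to 6.20% higher in cKO and 5.46% to 6.57% higher in Ctrl.

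Of 14 other ligand and activator genes, none passed higher in cKO and 6 passed higher in Ctrl, 3 of them called. These 6 were 42.9% of the list, where 11.8% of all genes passed higher in Ctrl and 3.92% were called. Ltbp2, a latent TGF-β binding protein gene, had 2.43 ± 0.570 CPM in Ctrl and 0.682 ± 0.0942 in cKO (log2 fold change -1.83). Inha, the inhibin α subunit gene, had 7.24 ± 1.05 and 3.52 ± 1.02 CPM (-1.04), and Pcsk5, a convertase gene, 5.50 ± 0.225 and 2.43 ± 1.27 CPM (-1.17, all SD, n = 3). Leaving out any 1 library left 1 or 2 of these list members called, and 3 passed without Ctrl 1, without Ctrl 2 or without cKO 3. Of 7 other receptor genes none was called. Tgfbr1, the TGF-β type I receptor gene, was slightly higher in cKO (0.33), and the endothelial receptor gene Acvrl1 (-0.49), its partner Eng (-0.43) and Tgfbr2 (-0.23) were lower. Of 6 endothelial markers 1 passed, higher in Ctrl, with sums of 390 to 400 CPM in Ctrl and 346 to 383 CPM in cKO and none at 0 in all libraries, and their part was not tested. In total-count scaling Tgfbr1 no longer passed (0.07), and when Ctrl 1, Ctrl 2, cKO 1 or cKO 3 was left out 1 of these 7 genes passed, higher in Ctrl.

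Among 10 other inhibitors, 3 were called higher in Ctrl, where the share over all genes was 3.92%. They were Bgn, the proteoglycan biglycan, with a log2 fold change of -1.47, Bambi, a decoy receptor, with -1.17, and the follistatin-like gene Fstl1 with -1.06. Wfikkn2, whose product binds myostatin and GDF11, ran the other way, with 11.7, 10.1 and 9.60 CPM in Ctrl and 17.2, 23.2 and 19.5 CPM in cKO. It passed at a log2 fold change of 0.93 (SE 0.14, adjusted p = 0.00566, edgeR), as did the BMP antagonist gene Nog at 0.88 (SE 0.15, adjusted p = 0.00876, edgeR). The antagonists did not share a direction, since Fst was lower in cKO and Wfikkn2 higher. The calls among these inhibitors depended on single libraries: none higher in cKO and 3 higher in Ctrl became 2 and 1 without Ctrl 3, 1 and 1 without cKO 1, and 1 and 2 without Ctrl 1.

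Of the 12 Smads and Smad regulators, 4 passed higher in cKO (33.3%) and 1 higher in Ctrl (8.33%). Over all genes these shares were 12.6% and 11.8%. Smad3, the signal transducer below activin and myostatin receptors, was the only pathway gene beyond the members called higher in cKO. It had 39.3, 51.1 and 65.1 CPM in Ctrl and 171, 140 and 135 CPM in cKO, with no overlap and a log2 fold change of 1.52 (SE 0.19, adjusted p = 0.00365, edgeR). Relative to 1000 counts of Myh4 it was 2.56, 2.07 and 1.78 in Ctrl and 2.14, 2.44 and 1.85 in cKO, which overlapped. The endosomal Smad anchor gene Zfyve9 (0.63), the repressor gene Skil (0.53) and the shared partner gene Smad4 (0.46) passed with smaller differences, and Smurf1, a ubiquitin ligase gene, was lower in cKO (-0.44). With total-count scaling Skil and Smad4 no longer passed (0.27 and 0.20), and 2 of the list passed higher in cKO without cKO 1 or without cKO 3. In the BMP branch none of 15 genes was called, and the 2 that passed in each direction (13.3%) were near the shares over all genes. The receptor genes Bmpr1a (0.55) and Bmpr2 (0.36) passed higher in cKO and the target genes Id2 (-0.69) and Id3 (-0.40) higher in Ctrl, and with total-count scaling neither receptor gene passed. Neither Id gene passed with the replicate block or when Ctrl 1, Ctrl 2, cKO 1 or cKO 3 was left out.

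The 13 genes known to respond to TGF-β or activin held 7 that passed, all higher in Ctrl, 5 of them called. Over all genes 11.8% passed and 3.92% were called in that direction. With total-count scaling 9 passed higher in Ctrl (69.2%, where 28.7% of all genes did). With the replicate block 5 passed higher in Ctrl (38.5%, where 6.85% of all genes did) and 1 higher in cKO. With DESeq2's Wald test 8 passed higher in Ctrl and 2 higher in cKO. Leaving out Ctrl 1, Ctrl 2, cKO 1 or cKO 3 left 5 that passed, all higher in Ctrl. Postn, for periostin, had 30.2, 35.9 and 54.3 CPM in Ctrl and 5.98, 11.3 and 5.68 CPM in cKO (log2 fold change -2.39), and Lox, for lysyl oxidase, 71.4, 78.5 and 56.2 against 10.5, 23.9 and 12 CPM (-2.15). The connective tissue growth factor gene Ctgf (-1.59) and the fibronectin gene Fn1 (-1.04) were also among those called. Without any 1 library, 4 or 5 were called higher in Ctrl, and without Ctrl 3 another gene of the list was called higher in cKO. Of the cell markers, 4 of 6 immune, 2 of 5 mural (Myh11 -0.57 and Cspg4 -0.52, with list sums of 347 to 371 CPM in Ctrl and 299 to 306 CPM in cKO) and 2 of 7 progenitor genes (Mfap5 -1.49 and Ly6a -1.13) passed and were higher in Ctrl as well. The other 5 progenitor genes ran from -0.31 (Cd34) to 0.29 (Smoc2) without passing, and their list sums overlapped between the groups as given above. No mural marker was at 0 in all libraries, and the part of these cells in the differences was not tested. The other 6 genes of the list did not pass in the main test, and their log2 fold changes ran both ways: 0.78 for Bhlhe40, 0.62 for Cdkn2b, 0.55 for Pmepa1, 0.08 for the collagen gene Col1a1, -0.29 for Tgfbi and -0.40 for Acta2. The sign for Col1a1 rested on cKO 2 (322 CPM, against 64.8 and 115 CPM in cKO 1 and 3). Its log2 fold change was -0.83 without cKO 2 and -0.12 with total-count scaling. Whether the differences in response genes are linked to those of the ligands was not tested.

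**Figure D5:**
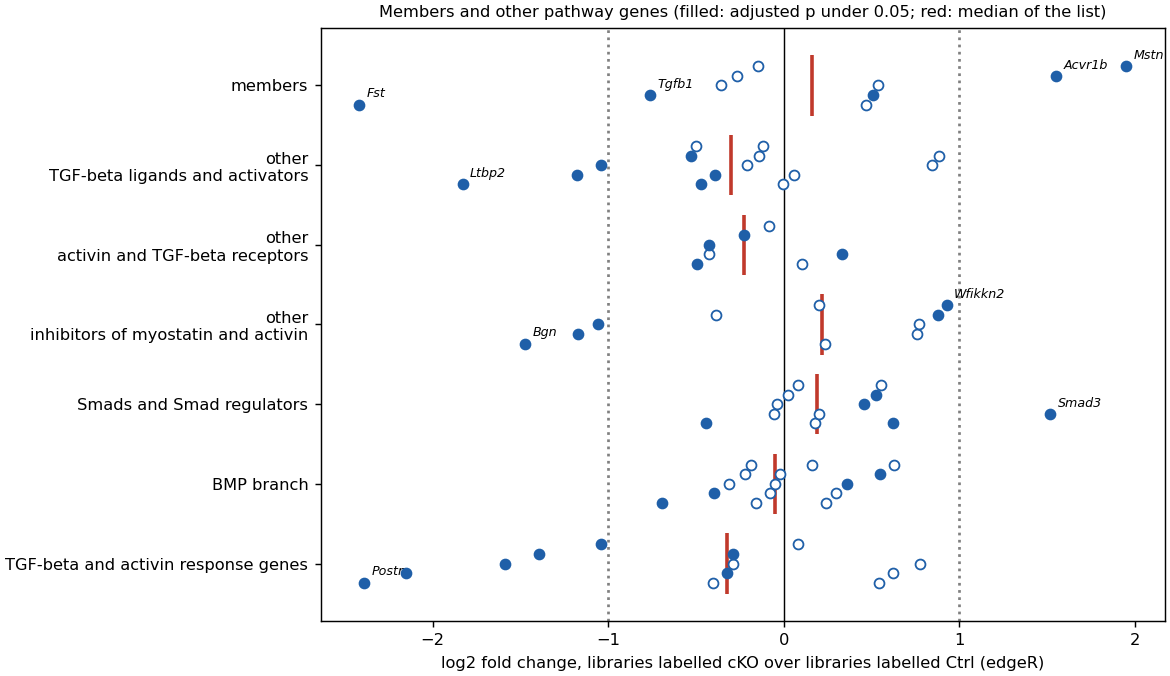
Log2 fold change of the members and of each other pathway gene tested, libraries labelled cKO over those labelled Ctrl, on the x axis, by list; filled points passed an adjusted p under 0.05 (edgeR), red bars are list medians and dotted lines mark a 2-fold difference. Smad3 (1.52) was the single gene beyond the members past the limit toward cKO, and Fst (-2.42) and Postn (-2.39) lay farthest toward Ctrl.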

How the data were processed

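GP muscle RNA from 6 male mice was sequenced as mRNA-Seq, and the authors deposited 1 table of raw counts per library. Per the labels and the study's methods, reads were checked with FastQC 0.11.8, trimmed with Trimmomatic 0.39, aligned to mm10 with HISAT2 2.1.0 and counted per gene with featureCounts 1.6.2. The annotation and strand setting are not given in the sources used here. Groups followed the labels. Counts were tested with edgeR 4.0.16 in R 4.3.3 (TMM, filterByExpr, glmQLFit and glmQLFTest, Benjamini-Hochberg over 14180 genes), with standard errors from the F statistic, and single values by exact permutation over the 6 libraries. A gene counted as called when its adjusted p was below 0.05 and the difference more than 2-fold, the limits of the study. The script was tested on simulated data. Alternatives were DESeq2 1.42.0, other scalings, filters and fits, and leaving out each library. Positions came from GENCODE M21, where 95.7% of symbols matched, and promoters from RefSeq; 9 of 10 members had a window, and Fst did not. Libraries of a group differed beyond counting error, by a chi-square per degree of freedom of 29.5 to 101, and p-values measure the spread between these mice. The members, the lists and the tests were chosen with earlier results of these data known. In each pathway list, the genes named were those called and, where fewer than 3 were called, those with the smallest p up to 3; others were named after their values were seen, and 1 called gene of the response list is not reported here. The ratios of Mstn to fast fiber genes other than Myh4, and those of the other members and Smad3 to Myh4, were added after the values were seen.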

Additional observations from a re-analysis of the deposited data

How the results depend on the processing

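Directions of all 10 members and of Ppapdc3 held under all 13 alternatives. Mstn, Acvr1b and Fst kept their calls in all 13, with the largest adjusted p at 0.0288, 0.0479 and 0.0336. The members called higher in cKO stayed at 2 when any 1 library was left out, and those higher in Ctrl at 1. With total-count scaling, 157 genes were called higher in cKO, 1023 higher in Ctrl and 2 members higher in Ctrl, and the median log2 fold change of the members was -0.08. Without the fold limit these counts were 1786 and 1668 genes and 2 members, and 9 and 22 pathway genes. Leaving out 1 library gave 172 to 387 genes called higher in cKO (172 without Ctrl 1), 1 to 4 pathway genes higher in cKO and 7 to 9 higher in Ctrl. Acvr2a did not pass with total counts (0.26) or when a library other than Ctrl 3 was left out (0.42 to 0.71 over all 6 fits). Acvr2b passed only with DESeq2's Wald test (0.55), and had a log2 fold change of 0.28 with total counts. The Mstn ratio was 1.26 higher in cKO on the log2 scale with Ckm as the reference, in place of 0.49 with Myh4. The cause of these shifts was not tested.

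Mouse numbers did not pair the libraries, as the correlations of deviations between equal numbers were 0.08, -0.21 and -0.002. With the replicate block 236 genes were called higher in cKO and 448 higher in Ctrl, Mstn had a log2 fold change of 2.01 and Acvr2a of 0.53 (adjusted p = 0.0777, edgeR), and no other member changed its side of the threshold. The lowest counts of the members were those of Inhba and Fstl3, at 12 to 38 per library.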
